A study of Homo sapiens with 11 samples.

Results

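Some human gene symbols join the names of a pair of neighbouring genes, as in NME1-NME2, and stand for readthrough transcripts that begin in the first gene and run on into the second. In the deposited count table of this series, 114 symbols had this form with both single symbols also present as rows, and the 87 with a mean count of at least 10 over the 11 libraries are described here, of 27671 rows in all. They involved 173 single-gene rows, called partners below, where A is the gene named first and B the gene named second. RAB4B was a partner of both RAB4B-EGLN2 and MIA-RAB4B, so the rows fell into 86 loci. The 3 joined symbols just inside the threshold were TMEM110-MUSTN1, NEDD8-MDP1 and RBAK-RBAKDN, with mean counts of 16.7, 13.0 and 11.6. The 3 just outside were TRIM6-TRIM34, DNAJC25-GNG10 and TRIM39-RPP21, with 8.45, 7.0 and 6.0. Of the 27 joined symbols below the threshold, 8 had 0 counts in every library.

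In readthrough transcription, RNA polymerase II passes the polyadenylation site of an upstream gene without ending transcription there, and splicing then joins an exon of the upstream gene to an exon of the downstream gene. Cleavage and polyadenylation factors, the exonuclease XRN2 and the PCF11 complex normally end the transcript, and joined messages often carry stop codons in positions that can make them targets of nonsense-mediated decay. A joined message shares most of its exons with the 2 single genes, so a short read from a shared exon fits more than one row of a count table.

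The RNA came from HEK293T cells, a human embryonic kidney line carrying the SV40 large T antigen, and was read as strand-specific libraries of polyadenylated RNA. Vehicle alone (DMSO) was given to 3 cultures and ISRIB in DMSO to 2, while 3 received A8 at 10 µM and 3 received both compounds. ISRIB binds the exchange factor eIF2B and dampens the integrated stress response. Labels give a treatment time of 8 h and the protocol 4 h, and the labels list replicate 2 of the group with ISRIB alone as left out for quality. The design text states mode of action of A8 as the purpose, and calls the replicates biological.

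Library totals were close to each other, from 34072107 to 35318111 counts. NEFL, NEFM, VIM, KRT18 and LIN28B, which HEK293 cells are known to express, had at least 283 counts in every library, while PTPRC, CD3E and PECAM1, markers of leukocytes and endothelium, were at 0. COL1A1, a collagen gene of fibroblasts, had 540 to 753 counts, and ALB, APOA1, DCN and CDH5 had at most 21. Joined rows took 0.579% to 0.624% of each library's counts, and joined and partner rows together 1.03% to 1.12%. A count of 0 allows up to 3 counts in that library, which covers counting error only.

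A joined message holds a junction between an exon of A and an exon of B, and at some loci further sequence that neither single message has. GENCODE 29 transcripts on GRCh38 held 69 of the 87 joined symbols together with both partners, and all 69 lay on the same chromosome and strand as their partners and overlapped both. Junctions from an A exon to a B exon were found for 63 of them, and none of the 63 junction sequences, of 15 bases on each side, occurred in a transcript of A or B. The authors' counts were made on GRCh37 with an annotation not given in the sources used here, so no coordinates are printed. The following junctions belong to loci whose rows are described below, with the last bases of the A exon in lower case and the first bases of the B exon in capitals, 5′ to 3′ along the transcript.
SENP3-EIF4A1: ctgcaaactcactgtCCAGGGGAATCCTCC
NME1-NME2: catacaagttggcagGACCATGGCCAACCT
COMMD3-BMI1: atggaacaattacagGATTTTTTATCAAGC
SPECC1L-ADORA2A: gctgccccacagcgtGTGCCTCAGGAACCC
MINOS1-NBL1: tgcacagcaacttctGGCTCTGGAGGCCAC
PMF1-BGLAP: cagcaggcctggcagGTGCGAAGCCCAGCG
ARPC4-TTLL3: aggaagcctgtggagCAGAAGAAGATCTTT
MIA-RAB4B: gatgtgaagacagacACTTCCTCTTCAAAT
RPL36A-HNRNPH2: attttccggaaaaagCTACACCAAAATTGC
SENP3-EIF4A1 and NME1-NME2 lie on the plus strand of chromosome 17, COMMD3-BMI1 on that of chromosome 10, SPECC1L-ADORA2A on that of chromosome 22 and RPL36A-HNRNPH2 on that of the X chromosome. MINOS1-NBL1 and PMF1-BGLAP lie on the plus strand of chromosome 1, ARPC4-TTLL3 on that of chromosome 3 and MIA-RAB4B on that of chromosome 19.

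One junction sequence occurred at 2 loci. SLX1A-SULT1A3 and SLX1B-SULT1A4, near-identical copies on chromosome 16 in which a nuclease subunit gene is joined to a sulfotransferase gene, share the following 30 bases.
SLX1A-SULT1A3 and SLX1B-SULT1A4: tcagaattagaagagGAACATGGAGCTGAT
These 30 bases do not tell the copies apart, and their separate counts (means of 1244 and 1419) are given as uncertain. They were chosen for mention after their sequences were seen.

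By the median, most of the sequence of the joined transcripts was also in a partner. Over the 69 matched loci, a median of 9.65% of the 31-base words of the joined transcripts occurred in neither partner, with a range of 0.599% to 74.5%. In the other direction, a median of 23.4% of the words of A and 33.0% of those of B occurred in the joined transcripts. These are properties of the GENCODE transcripts and not of the reads.

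Joined rows held a large part of the counts of their loci, and at many loci the row of the downstream gene was close to empty. The joined row exceeded the B row in 57 of 87 loci, the A row in 50 and the sum of A and B in 39, on the mean count over 11 libraries. The joined count as a share of the joined, A and B counts had a median of 42.4% over the 87 symbols, with quartiles of 10.9% and 86.8%. It was over 90% for 19 symbols and under 10% for 20. Set against B alone the median joined share was 91.5%, and against A alone it was 60.3%. These are shares of counts and not of molecules. The rule kept joined rows with a mean count of at least 10 and set no such floor for A or B. That choice raises the joined shares and the number of loci where the joined row is above a partner.

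Longer transcripts collect more reads, so the rows were also compared per kilobase of exon, with the exon lengths of GENCODE. Each length covers the exons of all GENCODE transcripts of a symbol together, and is not that of 1 transcript. The counts were made with an annotation not given, so these lengths may not be those behind the counts. TMX2-CTNND1, for example, had 0.585 kb against 8.80 kb for CTNND1. The comparison is therefore not a full correction for length. Among the 69 matched loci the joined row exceeded B in 48 and A in 44 by mean count per kilobase, against 45 and 43 by count. The median exon length was 3.09 kb for joined symbols, 3.88 kb for A and 3.93 kb for B.

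**Figure D1:**
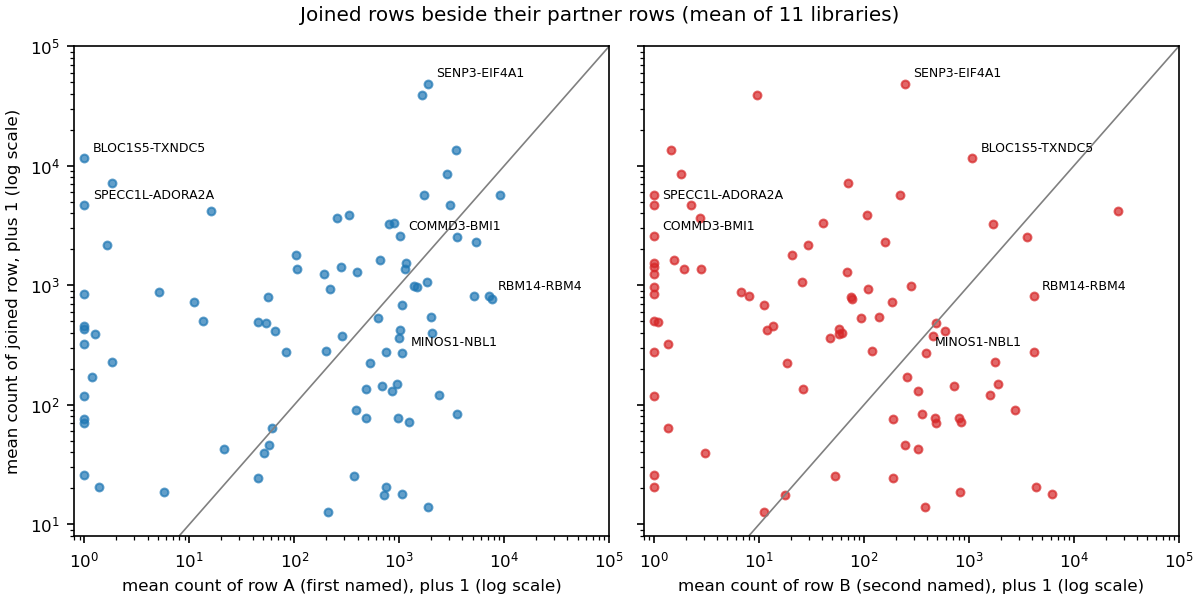
Mean count of each of 87 joined rows over 11 libraries (vertical axis, plus 1, log scale) against the mean count of the gene named first (left) and named second (right), both plus 1 on log scales. Each point is 1 joined symbol and the line marks equal counts; 57 points lie above it on the right and 50 on the left, with a column of points at 0 partner counts on each side.

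The highest joined row was that of SENP3-EIF4A1. EIF4A1 is the RNA helicase of the cap-binding complex that starts translation, and SENP3 is a SUMO protease of the nucleolus. The joined row had 48585, 51708 and 45701 counts in the DMSO libraries, 48439 and 53059 with ISRIB, 48245, 49887 and 46758 with A8, and 47040, 48217 and 47723 with both. The EIF4A1 row had 150 to 342 counts and the SENP3 row 1508 to 2276. All 11 libraries thus carried the joined symbol far above the helicase's own row, and the joined share was 94.8% to 96.9%. Per kilobase, the joined row had a mean of 13830 counts against 46.0 for EIF4A1 and 506 for SENP3.

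NME1-NME2 came next. NME1 and NME2 are nucleoside diphosphate kinases that are close relatives of each other. The joined row had 43263, 40710 and 34905 counts in DMSO, 38860 and 40727 with ISRIB, 40466, 36874 and 38203 with A8, and 37102, 39315 and 39840 with both. NME1 had 1456 to 1814 counts. NME2 was at 0 in 6 libraries and had 13 to 27 counts in the other 5, spread over all 4 groups. The joined share hardly varied, from 95.8% to 96.2%.

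The other 6 of the 8 highest joined rows showed the same kind of imbalance with 1 partner or with both. RNASEK-C17orf49 had 12179 to 15570 counts and C17orf49 had 0 to 2, while RNASEK, an endoribonuclease gene, had 3006 to 4052. BLOC1S5-TXNDC5 had 10437 to 12245 counts, against 0 in every library for BLOC1S5, a subunit of a complex of lysosome-related organelles, and 667 to 1335 for TXNDC5, a disulfide isomerase of the endoplasmic reticulum. TMX2-CTNND1 had 7832 to 9079 counts against 0 to 4 for CTNND1, which encodes the p120 catenin of adherens junctions, and 2582 to 3244 for TMX2. Thus the row of a junction protein was all but empty, and its joined row was the fifth of the 87.

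P2RX5-TAX1BP3 had 6384 to 7971 counts, with 0 to 2 for P2RX5, an ATP-gated channel, and 50 to 88 for TAX1BP3, a PDZ protein. ANKHD1-EIF4EBP3 had 5214 to 6347 counts, with 1376 to 2224 for ANKHD1 and 169 to 282 for EIF4EBP3, a repressor of cap-dependent translation. ATP5J2-PTCD1 had 4928 to 6107 counts and was below the row of ATP5J2, a subunit of ATP synthase, at 8342 to 10162. PTCD1, a mitochondrial RNA-binding protein, was at 0 in every library. Among these 8, only ATP5J2-PTCD1 had a partner row above the joined row.

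Partner rows at 0 in every library numbered 23 of 173, or 13.3%, against 23.2% of all 27671 rows, so empty rows were not more frequent among partners than in the table. By the rule, the joined row beside each of these 23 held at least 10 counts on average. B was at 0 throughout in 13 loci and A in 10, at least 1 of them in 19. Among the 28 joined symbols with a mean of at least 1000 counts, the B row had a mean under 10 in 14 and the A row in 4. Over all 87 loci the B mean was under 10 in 27 and the A mean in 18. Means under 10 were common in the whole table too, where 14890 of 27671 rows had a mean of 10 or more. COMMD3-BMI1, chosen after its values were seen, had 2037 to 2882 counts, with BMI1, a subunit of polycomb repressive complex 1, at 0 in all 11 libraries and COMMD3 at 861 to 1150.

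In 4 loci both single rows were at 0 throughout and the joined row alone carried the counts, so their joined share was 100%. SPECC1L-ADORA2A, which joins a cytoskeletal protein gene to the adenosine receptor gene, had 3596 to 5372 counts. TEN1-CDK3, of a telomere-capping subunit and a cyclin-dependent kinase, had 710 to 1022 counts. INS-IGF2, of insulin and insulin-like growth factor 2, had 117, 129 and 144 counts in DMSO, 127 and 118 with ISRIB, 90, 140 and 103 with A8, and 98, 99 and 133 with both. HSPB2-C11orf52, of a small heat shock protein, had 17 to 39 counts. The median joined share was also 100% for ZNF625-ZNF20 (8 to 29 counts) and PRH1-PRR4 (264 to 402 counts), whose partner rows had at most 2 counts in any library. These 6 share the highest median, 1 more than the 5 the naming rule asks for.

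At the other end, the 5 lowest median joined shares were those of URGCP-MRPS24 (0.220%), PTGES3L-AARSD1 (0.361%), TGIF2-C20orf24 (0.386%), NEDD8-MDP1 (0.580%) and HSPE1-MOB4 (2.11%). URGCP-MRPS24 had 0 to 35 counts beside 5601 to 6986 for MRPS24, a protein of the mitochondrial ribosome. NEDD8-MDP1 had 5 to 18 counts beside 1641 to 2046 for NEDD8, a ubiquitin-like modifier. HSPE1-MOB4 had 69 to 101 counts beside 3302 to 4162 for HSPE1, the mitochondrial co-chaperonin. In these loci the single rows held nearly all counts, apart from PTGES3L-AARSD1 in DMSO 2, where the joined share was 19.2%.

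Loci with nearly empty B rows had partners whose transcripts lie to a greater extent inside the joined transcripts. Where the B mean was under 10, a median of 53.2% of the words of B occurred in the joined transcripts (22 loci), against 31.1% where it was 10 or more (47 loci). For A the medians were 51.2% (14 loci) and 20.9% (55 loci). The ranges for B overlapped, from 3.14% to 100% and from 2.04% to 85.3%. This is a description over loci, and no test was made. The words come from GENCODE and the counts from an annotation not given.

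Some joined rows repeated a partner's row. PHOSPHO2-KLHL23 and KLHL23 had the same count in each of the 11 libraries, namely 429, 530 and 489 in DMSO, 498 and 574 with ISRIB, 428, 486 and 496 with A8, and 545, 499 and 323 with both. TMEM110-MUSTN1 and MUSTN1 were likewise identical, at 12 to 24 counts. In the whole table only 4 of 14890 rows with a mean of at least 10 (0.0269%) were identical to another row, and they were these 4. All loci described from here to the end of the next paragraph were chosen after their values were seen, apart from HSPE1-MOB4.

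Other pairs kept a nearly fixed ratio. The chi-square of the joined and partner counts over the 11 libraries, divided by its degrees of freedom and here called the split index, is near 1 where the ratio varies only by counting error. For ARMCX5-GPRASP2 and GPRASP2 it was 0.000666, with 150, 160 and 149 joined counts beside 751, 802 and 744 in DMSO. For HSPE1-MOB4 and MOB4 it was 0.0391, with 69 to 101 beside 303 to 442. Indices under 0.2 were found for 8 of the 60 loci with a B mean of at least 10, and for 4 of the 69 with an A mean of at least 10. The opposite was more frequent, with an index over 5 in 26 of 60 and 30 of 69, and the medians were 3.30 and 4.14.

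In a few loci the joined row or a partner was present in some libraries and nearly or fully absent in others of the same group. A row was counted as lost in a library where it had at most 0.1 of its median, among rows with a median of at least 50. Of 12656 such rows in the table, 8 were lost in at least 1 library, or 0.0632%. Of these 8 rows, 7 were joined symbols or partners, namely 5 of 74 joined symbols (6.76%) and 2 of 108 partners (1.85%), and the eighth was SPATA21. None of the 85 sums of joined, A and B counts with such a median was lost in any library. Losing a row that is a small part of its sum cannot bring the sum to 0.1 of its median. The median joined share was 3.20% for CORO7-PAM16, 8.23% for ARPC4-TTLL3 and 8.90% for BIVM-ERCC5. The sums therefore do not show whether counts moved between rows.

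MINOS1-NBL1 and NBL1 exchanged places. NBL1 encodes a secreted BMP antagonist of the DAN family, and MINOS1 a subunit of the MICOS complex of mitochondrial cristae. NBL1 had 652, 508 and 532 counts in DMSO, 0 and 0 with ISRIB, 545, 507 and 479 with A8, and 528, 526 and 0 with both. In the same order MINOS1-NBL1 had 172, 137 and 142, then 605 and 649, then 146, 137 and 128, then 141, 141 and 603. The joined row was thus high in the 3 libraries where NBL1 was at 0. The sum of both rows ran from 603 to 824, with the highest value in DMSO 1.

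ARPC4-TTLL3 was at 0 in 5 libraries and had 121 to 164 counts in the other 6. ARPC4 is a subunit of the Arp2/3 complex that branches actin filaments, and TTLL3 modifies tubulin. The joined counts were 0, 164 and 0 in DMSO, 0 and 140 with ISRIB, 130, 0 and 121 with A8, and 149, 134 and 0 with both, so each group held both kinds of library. BIVM-ERCC5 split in the same manner, with 3, 150 and 121 counts in DMSO, 153 and 6 with ISRIB, 4, 146 and 120 with A8, and 4, 132 and 4 with both. ERCC5, a DNA repair endonuclease, had 819 to 936 counts in the 5 libraries with few joined counts and 688 to 783 in the other 6.

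IQCJ-SCHIP1 was at 0 in DMSO 1, in DMSO with ISRIB b and in A8 with ISRIB 3, and had 54 to 123 counts elsewhere. In those 3 libraries SCHIP1, which encodes a partner of the NF2 protein, had 582, 520 and 507 counts, against 387 to 495 in the others. MIA-RAB4B was at 0 in DMSO 2 and in A8 3, where RAB4B, an endosomal GTPase, had 430 and 399 counts. In the other 9 libraries MIA-RAB4B had 189 to 235 and RAB4B 199 to 246. The sum of both rows stayed between 390 and 481 counts.

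CORO7-PAM16 was at 0 in A8 3 alone and had 113 to 154 counts in the other 10 libraries. CORO7 is a coronin of the Golgi and PAM16 a part of the mitochondrial import motor, with 2172 to 2622 and 1294 to 1800 counts. ASB3, of a SOCS-box protein, was at 0 in DMSO with ISRIB a and in A8 3 and had 30 to 221 counts elsewhere, while GPR75-ASB3 had 592 to 910. Every library except A8 with ISRIB 2 had lost at least 1 of these 7 rows by this rule, and A8 with ISRIB 3 had lost 4.

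**Figure D2:**
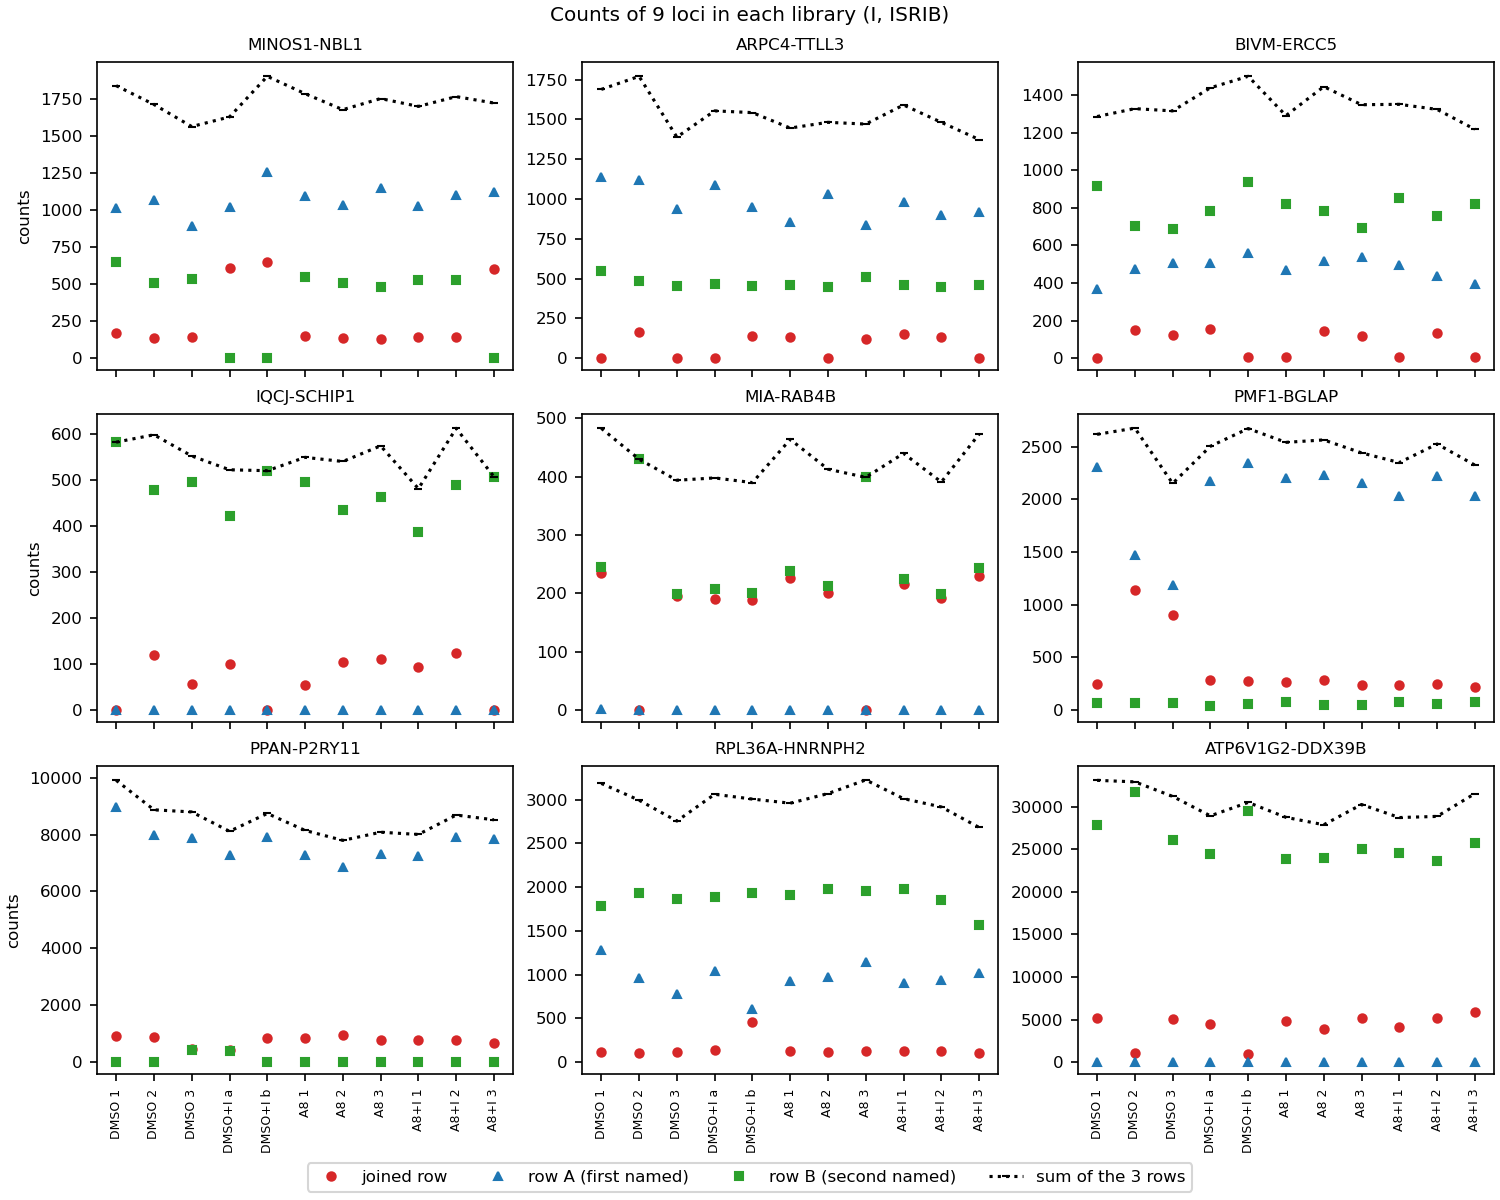
Counts of the joined row (circles), the gene named first (triangles), the gene named second (squares) and their sum (dotted line) for 9 loci in each of the 11 libraries, where I stands for ISRIB. Joined or partner points depart from their usual level in single libraries, and those of MINOS1-NBL1 and NBL1 trade places in 3 libraries. The sums, of which the joined row is often a small part, move far less in proportion.

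The reverse pattern, a row high in few libraries and near 0 in most, was met by 5 of 13164 rows (0.038%) with at least 50 counts in 1 library and a median of at most 0.1 of that, a rule set after the values were seen. P2RY11, an ATP receptor, had 433 counts in DMSO 3, 396 in DMSO with ISRIB a and 0 in the other 9 libraries. PPAN-P2RY11 had 476 and 441 counts in those 2 libraries and 686 to 937 elsewhere. PTGES3L-AARSD1 had 164 counts in DMSO 2 and 1 to 6 elsewhere, and AARSD1, an editing protein of alanyl-tRNA, was at its lowest there, with 688. ARHGAP19 had 108 counts in A8 with ISRIB 1 and at most 1 elsewhere. The other 2 rows, KTI12 and RAET1E-AS1, belonged to no joined symbol.

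Larger rows split as well, and 3 further loci were chosen after their values were seen. PMF1-BGLAP had 1144 and 900 counts in DMSO 2 and 3 and 223 to 288 in the other 9 libraries, while PMF1, a kinetochore protein, had 1469 and 1186 in those libraries and 2030 to 2342 elsewhere. RPL36A-HNRNPH2 had 456 counts in DMSO with ISRIB b and 99 to 134 in the other 10, and RPL36A, a ribosomal protein gene, had its lowest count there, 612. ATP6V1G2-DDX39B had 1129 counts in DMSO 2, 956 in DMSO with ISRIB b and 3945 to 5838 elsewhere. DDX39B, an RNA helicase of mRNA export, was highest in these 2 libraries, at 31752 and 29517.

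The spread between replicates was wide for such rows and narrow for the locus as a whole. The SD within groups of log2 CPM (counts divided by the TMM-scaled library size), pooled over the groups with 7 degrees of freedom, exceeded 0.5 for 12 of 87 joined rows and for 0 of 87 sums of joined, A and B counts. The 87 include PTGES3L-AARSD1, which was not tested. Among partners tested the SD exceeded 0.5 for 15 of 129, and among all 15591 genes tested for 7.79%. The median SD was 0.144 for the 86 joined rows tested, 0.153 for 129 partners tested, 0.141 for all genes tested and 0.102 for the sums. A sum has more counts than its parts and so less counting error relative to its size. Where the joined row is a small share of its locus, the SD of the sum is mostly that of the larger rows. URGCP-MRPS24, for example, had a sum SD of 0.095 beside 0.106 for MRPS24. ARPC4-TTLL3 had an SD of 3.68 and its sum 0.101, MINOS1-NBL1 0.70 and 0.104, and NBL1 2.48. The sum had the smaller SD in 64 of 87 loci.

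**Figure D3:**
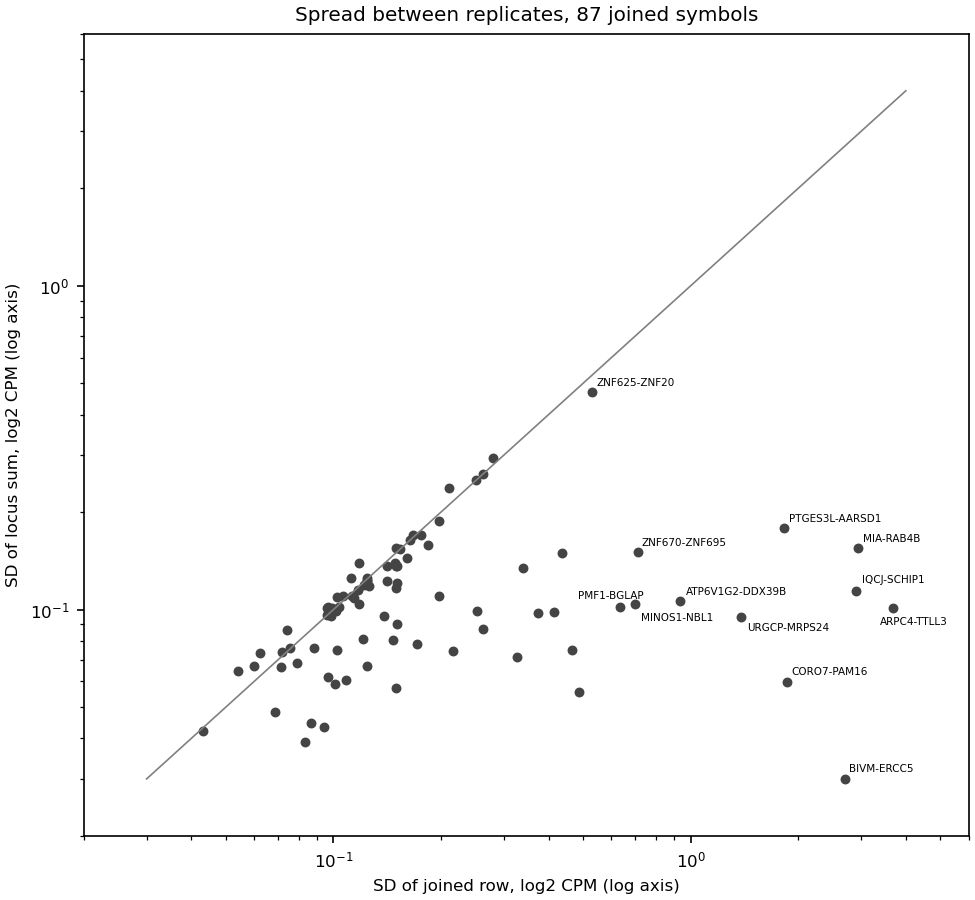
SD between replicates of the joined row (horizontal) against that of the sum of joined, A and B rows (vertical) for 87 joined symbols, in log2 CPM on log axes, with a line of equality. The 12 named symbols have a joined SD over 0.5, and every sum lies below 0.5.

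Against this spread the treatments were compared. In A8 against DMSO, 0 of 215 joined symbols and partners tested were called by edgeR's quasi-likelihood test at an adjusted p under 0.05 over all genes, beside 0.141% of all 15591 genes tested. At an unadjusted p under 0.05 there were 22 of 215 (10.2%), 4 higher and 18 lower, beside 10.2% of all genes. Directions were not counted over all genes, so the split of 4 and 18 has no background. The DESeq2 Wald test called 1 of the joined symbols and partners, HOXA9, beside 1.18% of its genes. The median log2 fold change was -0.0062, beside 0.0069 over all genes. The p-values measure the spread between these libraries.

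The most abundant joined rows stayed within that spread. SENP3-EIF4A1 was at 1381 ± 77 CPM (SD, n = 3) in DMSO, 1441 ± 60 (SD, n = 2) with ISRIB, 1391 ± 15 (SD, n = 3) with A8 and 1391 ± 94 (SD, n = 3) with both. Its log2 fold change with A8 was 0.01 (SE 0.07). That of NME1-NME2 was -0.02 (SE 0.08), from 1125 ± 122 to 1111 ± 76 CPM (SD, n = 3 each). For the other 6 of the 8 highest joined rows it lay between -0.02 and 0.03, namely -0.02 for ATP5J2-PTCD1 and 0.03 for RNASEK-C17orf49 at the ends.

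The largest differences with A8 belonged to rows that split between libraries or hold few counts. URGCP-MRPS24 was at -2.25 on the log2 scale (SE 1.04, edgeR adjusted p 0.475), from 35, 0 and 10 counts to 9, 0 and 0, so the groups overlapped. PMF1-BGLAP was at -1.52 (SE 0.33) with an edgeR adjusted p of 0.0887, from 21.6 ± 13.0 CPM (SD, n = 3) to 7.56 ± 0.54 (SD, n = 3). DMSO 1 lay among the A8 libraries, with 247 counts against 263, 288 and 237. Its locus sum was at 70.4 ± 7.9 and 72.5 ± 1.4 CPM, a log2 fold change of 0.04. Without DMSO 1, PMF1-BGLAP (-1.93, edgeR adjusted p 1.59e-07) and PMF1 (0.76, 5.82e-04) were both called, in opposite directions.

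In DMSO with ISRIB against DMSO, 0 of 215 were called by edgeR, as among all genes (0.0%), and 18 (8.37%) had an unadjusted p under 0.05, beside 9.58%. NBL1 was at 16.0 ± 2.3 CPM (SD, n = 3) in DMSO and at 0 counts in both libraries with ISRIB alone, at least 188-fold lower when the floor of 3 counts per library is used, and no library overlapped. Its edgeR adjusted p was 0.198. The log2 fold change of MINOS1-NBL1 was 2.06 (SE 0.44, edgeR adjusted p 0.237), from 4.27 ± 0.56 to 17.8 ± 0.5 CPM. The locus sum had 0.05, from 48.4 ± 4.0 (SD, n = 3) to 50.1 ± 4.4 (SD, n = 2). DESeq2 called NBL1 and HOXA10, beside 0.563% of its genes, and gave the sum an adjusted p of 0.864.

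NBL1 was also at 0 in A8 with ISRIB 3, at 526 and 528 counts in the other 2 libraries of that group. Without that library edgeR called NBL1 and MINOS1-NBL1 in this comparison, with adjusted p of 1.38e-11 and 3.25e-08. RPL36A-HNRNPH2 had a log2 fold change of 1.40 (SE 0.31), which rested on DMSO with ISRIB b, the library with 456 counts. With DMSO with ISRIB a left out it was 2.02, and with b left out 0.30. The locus sum was at 84.5 ± 6.2 and 86.3 ± 3.1 CPM.

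The authors' deposited table for ISRIB against DMSO lists 8 genes at an adjusted p under 0.05, 0.0499% of the 16043 with an adjusted p, and 2 of the 8 are among the 218 joined and partner rows with one. It gives NBL1 a log2 fold change of -24.4 with an adjusted p of 3.57e-19. It gives RPL36A-HNRNPH2 1.40 with 2.83e-04. The authors' deposited table for 10 µM A8 against DMSO calls 0 of the 198 joined and partner rows with an adjusted p, beside 0.475% of 13671 genes. The authors' deposited table for A8 with ISRIB against DMSO calls 0 of 218, beside 0.0499% of 16043. Each of the authors' deposited tables lists 239 of the 260 joined and partner rows.

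The remaining 4 comparisons gave 0 edgeR calls among the 215 rows. In A8 with ISRIB against DMSO all genes gave 0.0192%, and 16 rows (7.44%) had an unadjusted p under 0.05 beside 7.7%. In A8 with ISRIB against DMSO with ISRIB the background was 0.0128%, with 24 rows (11.2%) beside 8.32% at an unadjusted p under 0.05, and DESeq2 called NBL1 and RPL36A-HNRNPH2, beside 0.616%. In A8 with ISRIB against A8 it was 0.18%, with 16 rows (7.44%) beside 5.91%. In the interaction, the difference between the A8 effects with and without ISRIB, it was 0.0257%, with 27 rows (12.6%) beside 8.48%, and DESeq2 called NBL1 and RNASEK, beside 0.514%. DESeq2 called 0 rows in the first and the third of these 4, beside 0.246% and 0.45%. Several of these comparisons share libraries, so they are not independent.

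The calls that DESeq2 and unfiltered edgeR made on single rows were not made on the sums of their loci. Calls made with 1 library left out were not compared with sums. Several called rows were a small part of their sum, where a change of the row alone hardly moves the sum. BSCL2 had a mean of 156 counts beside 5401 for HNRNPUL2, and P2RY11 had 75.4 beside 7678 for PPAN. Whether counts moved between rows was not tested. Over the 6 comparisons, DESeq2 made 7 calls on 5 joined or partner rows. Unfiltered edgeR made 31 calls on 13 rows, namely 7, 5, 5, 5, 5 and 4 in the order A8, ISRIB and both against DMSO, both against ISRIB, both against A8, and interaction. The backgrounds of unfiltered edgeR were 0.49%, 0.0659%, 0.188%, 0.193%, 0.254% and 0.122% in that order. The same tools called 0 of the corresponding locus sums, at adjusted p from 0.370 to 1. The log2 fold changes of the called rows were 0.24 to 12.12 in size, and those of their sums 0.01 to 0.21. In the main edgeR test, 0 of 86 locus sums were called in each of the 6 comparisons, beside 0.149%, 0.0%, 0.0194%, 0.0259%, 0.181% and 0.0259% of all rows of the summed table in the same order. At an unadjusted p under 0.05 the sums numbered 8, 5, 6, 4, 6 and 8 of 86, beside 10.3%, 9.6%, 7.74%, 8.27%, 5.89% and 8.42% of all rows.

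The DESeq2 calls included genes with moderate changes. HOXA9, a homeobox gene, had 4080, 3869 and 4027 counts in DMSO and 3297, 3623 and 3124 with A8, without overlap, and a DESeq2 log2 fold change of -0.24 with an adjusted p of 0.0349. The sum of HOXA10-HOXA9, HOXA10 and HOXA9 had -0.09 and 0.521. HOXA10 had 3752, 3737 and 3745 counts in DMSO and 3177 and 3145 with ISRIB, with -0.24 and 0.0268 in DESeq2, and the sum -0.11 and 0.449. RNASEK had 0.40 and 0.0363 in the interaction, and its sum 0.21 and 0.602. The sum thus kept the direction in these 3 cases, at a smaller size.

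**Figure D4:**
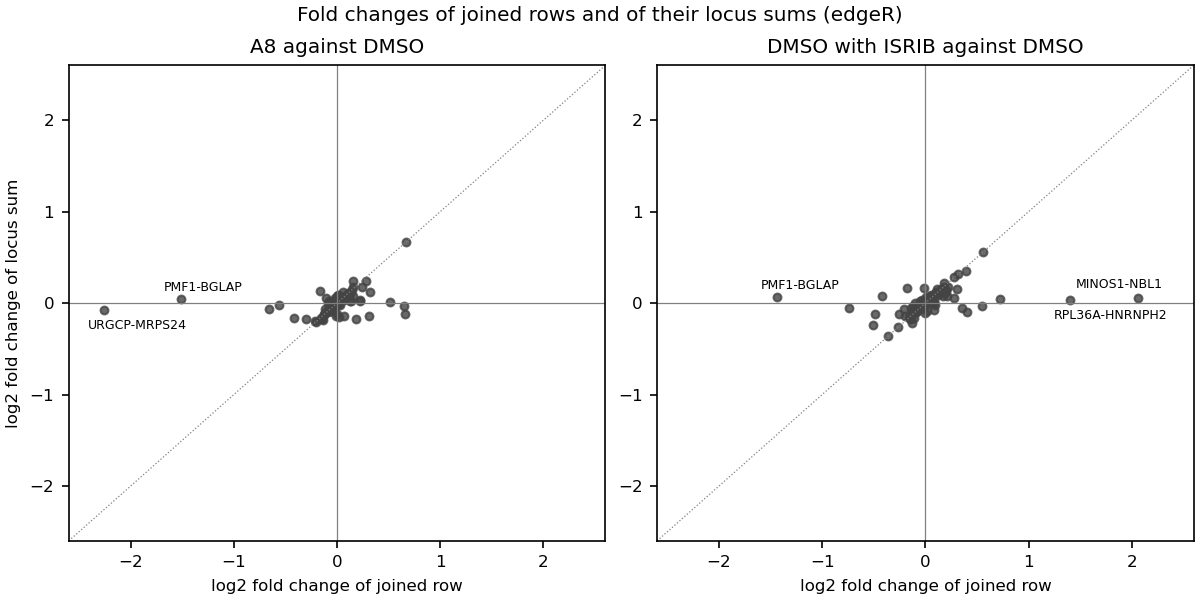
Log2 fold change of each of 86 tested joined rows (horizontal) against that of its locus sum (vertical) in A8 against DMSO (left) and in DMSO with ISRIB against DMSO (right), from edgeR, with dotted lines of equality. Rows named have a joined change over 1 in size, and their sums lie near 0.

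In every comparison at least 2 joined rows had a log2 fold change over 1 in size and 0 of 86 locus sums did. The share of all genes with a change of that size was not counted. A joined row that is a small part of its locus hardly moves the sum, as with URGCP-MRPS24, at a median share of 0.220%. The sums ranged from -0.21 to 0.67 in A8 against DMSO and from -0.36 to 0.56 in DMSO with ISRIB against DMSO. The highest of them with A8 was that of HSPB2-C11orf52, whose joined row is the whole locus, with 22, 17 and 17 counts in DMSO and 39, 27 and 22 with A8 (edgeR adjusted p 0.497).

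The machinery that ends transcripts was looked at next. The lists held 22 genes of cleavage and polyadenylation, 14 of transcription termination and 20 of nonsense-mediated decay, and 56 of 56 were tested. With A8, edgeR called 0 of them in either direction beside 0.141% of all genes, 2 of 56 had an unadjusted p under 0.05 beside 10.2%, and the median log2 fold changes were 0.03, 0.01 and 0.01, beside 0.01 over all genes. The member farthest from 0 in each list was CLP1, a kinase of cleavage factor II (-0.20, SE 0.10), RPRD2, which binds the polymerase tail (0.16, SE 0.08), and UPF3A, of the decay pathway (-0.24, SE 0.14), in that order, with edgeR adjusted p of 0.482, 0.541 and 0.564. In the other 5 comparisons edgeR also called 0 of 56, beside 0.0% to 0.18% of all genes. DESeq2 called MAGOH, an exon junction protein of the decay list, in DMSO with ISRIB against DMSO (log2 fold change 0.39, DESeq2 adjusted p 0.0268), beside 0.563% of its genes. It called DHX9, an RNA helicase of the termination list, in A8 with ISRIB against DMSO with ISRIB (-0.20, DESeq2 adjusted p 0.0355), beside 0.616%.

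With ISRIB alone the medians were 0.05, 0.05 and 0.10, beside 0.0022 over all genes, and 6 of 56 had an unadjusted p under 0.05, beside 9.58% of all genes. With both compounds against DMSO they were 0.02, 0.03 and 0.05.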

How the data were processed

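Polyadenylated RNA of HEK293T cells in 4 treatment groups (11 libraries) was sequenced strand-specifically, per the labels' protocols. The authors deposited whole-number counts per gene symbol, on GRCh37 per the submitters' processing notes; the sources used here name no counting program or annotation. Per the file headers, their DESeq2 tables hold base means (a signal of normalized counts, not used here), log2 fold changes and p-values. The 2 columns with ISRIB alone match the titles only by group and are called a and b.

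All rows were tested with edgeR 4.0.16 in R 4.3.3 (filterByExpr, TMM, one quasi-likelihood fit of 11 libraries, Benjamini-Hochberg over 15591 genes, called under 0.05), checked on simulated data; SEs come from the F statistic. SDs use log2 CPM with a prior count of 2. Alternatives were DESeq2 1.42.0, its size factors, other filters, summed rows and each library left out; DESeq2 and unfiltered edgeR on sums, the split index and the rule for rows high in few libraries were added after seeing the data. Sequences are from GENCODE 29 (GRCh38).

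Members and lists were chosen with earlier results of these data known. The naming rule takes the 8 highest joined rows, the 5 highest and 5 lowest joined shares, rows lost in a library, called rows, and each list's largest change with A8. A count of 0 allows 3 counts; replicates of a group differed by more than counting error.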

Additional observations from a re-analysis of the deposited data

How the results depend on the processing

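The edgeR counts of called joined and partner rows, 0 in all 6 comparisons, stayed at 0 with DESeq2 size factors, with a filter of 50 counts in 2 libraries and on locus sums. DESeq2 called 1, 2, 0, 2, 0 and 2, and edgeR without a filter 7, 5, 5, 5, 5 and 4 (A8, ISRIB and both against DMSO, both against ISRIB, both against A8, interaction). Leaving out 1 library gave 0 to 2 calls, and 0 to 1 in both against A8, where BSCL2 was called without DMSO 1; with 1 library of ISRIB alone left, that library is assumed to vary like the other groups. Listed genes went from 0 called to 1 (MAGOH or DHX9) under DESeq2, with or without summed rows, in ISRIB against DMSO and in both against ISRIB. The median joined share, 42.4%, was 49.7% with a minimum mean count of 50, 91.5% against B only and 60.3% against A only, and 42.3% to 42.9% without single libraries. The median SD of joined rows was 0.125 with a minimum of 50 and 0.125 to 0.15 without single libraries, and that of sums 0.0951 to 0.108. Lost partners numbered 1 at a minimum median of 100. The joined rows ARPC4-TTLL3, BIVM-ERCC5, CORO7-PAM16 and MIA-RAB4B, with medians of 120 to 195, were still lost there, as was SPATA21. Lost rows of all kinds numbered 13 at a minimum median of 20. Without single libraries they were 4 to 5 joined rows, 2 partners and 8 to 9 rows in all. With A8, the log2 fold change of SENP3-EIF4A1, 0.01, was -0.0300 without DMSO 3 and 0.0502 without DMSO 2, and that of NME1-NME2, -0.02, was 0.0557 without DMSO 1, 0.0347 without A8 2 and -0.0993 without DMSO 3. Without single libraries the log2 fold change with ISRIB was -12.20 to -12.00 for NBL1, 1.99 to 2.17 for MINOS1-NBL1 and 0.30 to 2.02 for RPL36A-HNRNPH2, and with A8 -1.93 to -1.11 for PMF1-BGLAP. The cause of these changes was not tested beyond the fewer rows or samples each setting has.

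Replicate numbers were used as a block in 9 libraries. Same-numbered libraries of different groups had correlations of deviations from -0.55 to 0.49, so the numbers do not pair the samples. Differently numbered libraries of different groups had -0.49 to 0.55, and variation shared across groups in this way was not modelled. The block left 0 joined or partner rows called and 15, 0 and 15 genes of all in A8 and both against DMSO and both against A8, against 19, 3 and 25 without it. Depth limits rows near 10 counts, and the counts do not show which reads crossed a junction.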
